A study of Homo sapiens with 18 samples.

Results

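The comparison covers the 3 MethylMagnet and the 3 MethylCollector Ultra libraries, which are 6 of the 18 samples and 6 of the 15 MBD-seq libraries of a study of 5 commercial capture kits. Both kits were applied once to DNA of each of 3 established human cell lines, namely HCT15 (colorectal carcinoma), DU145 and PC3 (both prostate cancer). Libraries were chosen by kit label only and paired by cell line. MethylMagnet uses recombinant MBD2b, and MethylCollector Ultra uses MBD2b together with MBD3L1. All lines were handled without treatment, the same amount of sheared DNA went into each capture, and elution was done at the highest salt setting of the kit. The cell lines are the only replicates, so differences between kits are measured over 3 pairs. Reduced representation bisulfite sequencing (RRBS), the other assay, was done once per cell line and gives the methylation of single CpGs.

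Methyl-CpG-binding domain (MBD) proteins bind double-stranded DNA at CpG dinucleotides whose cytosines carry a methyl group. In MBD-seq such a protein is coupled to beads, and the captured fragments are sequenced, so that depth along the genome reflects both methylation and the number of methylated CpGs per fragment. MBD2b is the short form of MBD2, and MBD3L1 is a small related protein without the methyl-CpG-binding domain that associates with MBD2. Most CpGs of the human genome lie far apart and are methylated, whereas CpG islands, which often cover promoters, are crowded with CpGs and mostly unmethylated, except at genes silenced in cancer.

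The following stretches of 240 bases (build GRCh37, written 5′ to 3′ on the strand of the gene, CG dinucleotides in capitals) show targets named in the comparison below. Each is the stretch with the highest summed depth of its window, promoter or coding sequence outside annotated UTRs. The MIR3648 stretch belongs to the fullest multi-copy window and holds 46 CpGs (chr21:9826001-9826240, plus strand, no annotated exon of a protein-coding or lncRNA gene). The ZAR1 stretch belongs to a promoter called higher for MethylMagnet and has 35 CpGs (chr4:48492587-48492826, plus strand, coding). The VDR stretch has 14 CpGs (chr12:48336335-48336574, minus strand, intron) and comes from a promoter with MethylCollector Ultra fragments and no MethylMagnet fragment. That promoter was not called for either kit, and the stretch held 2, 3 and 4 MethylCollector Ultra fragments in HCT15, DU145 and PC3. The MBD3L1 stretch has 1 CpG (chr19:8953509-8953748, plus strand, coding) and lies in the fullest window of MethylCollector Ultra in HCT15 and PC3.
MIR3648: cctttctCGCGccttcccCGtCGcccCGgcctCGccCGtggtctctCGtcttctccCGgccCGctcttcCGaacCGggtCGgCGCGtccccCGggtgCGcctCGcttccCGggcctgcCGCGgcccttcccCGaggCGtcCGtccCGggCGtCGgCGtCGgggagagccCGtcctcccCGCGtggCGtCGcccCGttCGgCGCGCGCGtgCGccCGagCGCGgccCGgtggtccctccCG
ZAR1: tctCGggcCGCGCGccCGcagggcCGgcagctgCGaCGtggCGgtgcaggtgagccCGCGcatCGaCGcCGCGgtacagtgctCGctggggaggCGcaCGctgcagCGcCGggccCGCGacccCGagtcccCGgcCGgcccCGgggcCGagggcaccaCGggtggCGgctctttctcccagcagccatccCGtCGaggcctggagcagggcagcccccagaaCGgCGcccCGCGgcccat
VDR: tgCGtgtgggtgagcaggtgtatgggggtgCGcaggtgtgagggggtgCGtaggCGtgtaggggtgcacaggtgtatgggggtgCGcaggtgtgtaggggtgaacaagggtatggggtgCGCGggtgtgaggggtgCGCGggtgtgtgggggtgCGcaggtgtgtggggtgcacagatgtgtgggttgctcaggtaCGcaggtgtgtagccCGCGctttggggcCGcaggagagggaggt
MBD3L1: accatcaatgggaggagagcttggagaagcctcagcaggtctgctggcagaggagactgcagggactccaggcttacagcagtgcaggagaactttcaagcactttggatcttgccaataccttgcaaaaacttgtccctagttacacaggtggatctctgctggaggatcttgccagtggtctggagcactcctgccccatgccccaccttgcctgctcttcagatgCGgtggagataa

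As rebuilt from the steps in depth, MethylMagnet libraries held 59972 (HCT15), 10040 (DU145) and 242074 (PC3) non-duplicate fragments, and MethylCollector Ultra libraries 652800, 30336 and 578738. The counts that the study reports are slightly higher for each of these libraries. MethylCollector Ultra thus had 10.9, 3.02 and 2.39 times as many in these lines. Median fragment lengths were 156 to 164 bp for MethylMagnet and 169 to 182 bp for MethylCollector Ultra, and 97.5 to 98.6% of fragments lay on autosomes. All 6 libraries had their highest depth over CpGs methylated in RRBS only in the cell line named on the label. RRBS gave 1334709, 1712853 and 1576922 autosomal CpGs with a coverage of at least 20 in HCT15, DU145 and PC3. The PC3 set has none on chromosome 22. The DU145 libraries are the shallowest of both kits and set the lower limit of what could be compared.

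MethylMagnet placed more of its depth in promoters and coding exons, and MethylCollector Ultra more in introns, in each of the 3 cell lines. Shares are summed depth as a percent of the depth of the whole library. Promoters, taken as 1 kb on either side of the 5′ end of a protein-coding or lncRNA gene, held 15.7% (HCT15), 11.2% (DU145) and 8.70% (PC3) of MethylMagnet depth. For MethylCollector Ultra they held 8.54%, 7.89% and 6.26%. Within each line MethylMagnet was higher, by 1.84, 1.42 and 1.39 times, and the lowest MethylMagnet value lay just above the highest MethylCollector Ultra value. The mean log2 ratio was 0.62 ± 0.22 (SD, n = 3 cell lines). By the exact permutation test that flips the sign of each pair (two-sided) p was 0.25, which is the smallest that 3 pairs can give. Shuffling the 6 libraries over kits without pairs cannot give less than 0.1. None of the comparisons of shares can therefore pass 0.05, and they are described by their size, their spread and the number of lines that agree in direction.

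Exons outside promoters held 22.6%, 24.5% and 16.9% of MethylMagnet depth and 16.4%, 17.6% and 15.5% of MethylCollector Ultra depth (HCT15, DU145, PC3). The difference was 0.35 ± 0.20 on the log2 scale (SD, n = 3; exact p = 0.25), with PC3 MethylMagnet below DU145 MethylCollector Ultra. Coding sequence carried it, with 16.5%, 18.3% and 11.7% for MethylMagnet against 10.2%, 11.7% and 9.63% (log2 0.53 ± 0.22). Non-coding exons of protein-coding genes differed by −0.02 ± 0.16 and lncRNA exons by −0.08 ± 0.17, both smaller than the spread between lines. Introns went the other way, with 37.2%, 39.9% and 44.7% for MethylMagnet and 48.6%, 47.6% and 51.6% for MethylCollector Ultra. The kits did not overlap there, and the log2 ratio was −0.28 ± 0.09 (exact p = 0.25). Intergenic space held 22.5%, 22.8% and 27.4% against 24.7%, 25.5% and 24.6%. That is a difference of −0.05 ± 0.17, with PC3 in the opposite direction (exact p = 0.75).

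Against the size of each class in the reference, both kits enriched the same classes. Promoters make up 2.46% of autosomal reference bases, and their depth stood 3.62 to 6.53 times above that share for MethylMagnet and 2.60 to 3.54 times above it for MethylCollector Ultra. Coding sequence outside promoters, at 1.15% of bases, stood at 10.5 to 16.2 and 8.59 to 10.4 times. Introns were below their share in every library, at 0.680 to 0.821 times for MethylMagnet and 0.866 to 0.945 times for MethylCollector Ultra. MethylCollector, the sister kit with MBD2b alone, had promoter shares of 12.6%, 9.43% and 8.89% in HCT15, DU145 and PC3. These lay between both kits in HCT15 and DU145 and above both in PC3.

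**Figure D1:**
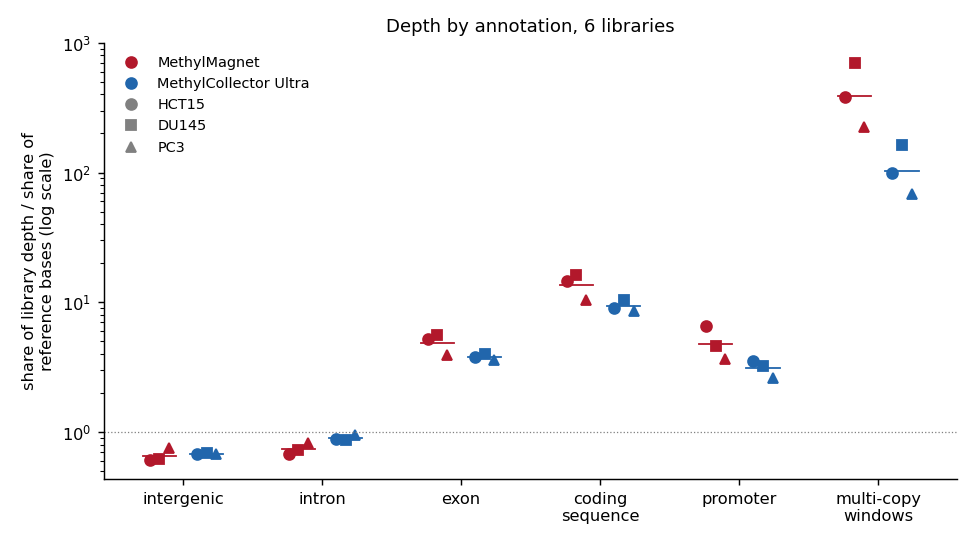
Share of library depth divided by the share of autosomal reference bases (vertical, log scale) for 5 annotation classes and 46 multi-copy windows, with 1 point per library (colour for kit, shape for cell line) and a bar at the geometric mean. MethylMagnet points lie above those of the same cell line for MethylCollector Ultra in exons, coding sequence, promoters and multi-copy windows and below them in introns.

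The kits differed more by the number of CpGs in a stretch of DNA than between promoters, exons, introns and intergenic space. In windows of 200 bp with 20 or more CpGs, MethylMagnet had 24.8%, 20.5% and 13.1% of its depth (HCT15, DU145, PC3) and MethylCollector Ultra 5.93%, 7.51% and 4.19%. Such windows make up 0.334% of the reference. The kits did not overlap, and the ratio was 4.18, 2.73 and 3.14 within lines (log2 1.72 ± 0.31, exact p = 0.25). In windows with 15 to 19 CpGs the log2 ratio was 0.82 ± 0.12.

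In windows with 7 to 9 CpGs the direction was the opposite. MethylMagnet had 8.75%, 12.8% and 7.01% there and MethylCollector Ultra 21.7%, 21.4% and 21.8%, again without overlap (log2 −1.23 ± 0.45, exact p = 0.25). The MethylCollector Ultra values differed by under 1 percentage point between cell lines, and the MethylMagnet values by more. Windows with 4 to 6 CpGs (log2 −0.85 ± 0.24) and with 10 to 14 CpGs (−0.45 ± 0.31) were also lower for MethylMagnet in all 3 lines. Windows with 4 to 14 CpGs are thus the range in which MethylCollector Ultra had the larger share, and windows with 15 or more the range of MethylMagnet.

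At the bare end of the scale the cell lines disagreed. Windows without a CpG held 6.40%, 3.31% and 12.6% of MethylMagnet depth (HCT15, DU145, PC3) and 4.76%, 3.74% and 4.70% of MethylCollector Ultra depth. MethylMagnet was 2.68 times higher in PC3 and 1.35 times in HCT15, but 0.885 times in DU145. The mean log2 ratio of 0.56 ± 0.81 was smaller than the spread (exact p = 0.5), and without PC3 it was 0.13. In windows with 1 CpG the MethylMagnet share was also higher in PC3 (14.5% against 6.52%) and HCT15 (7.67% against 6.07%), and lower in DU145 (4.49% against 5.26%).

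**Figure D2:**
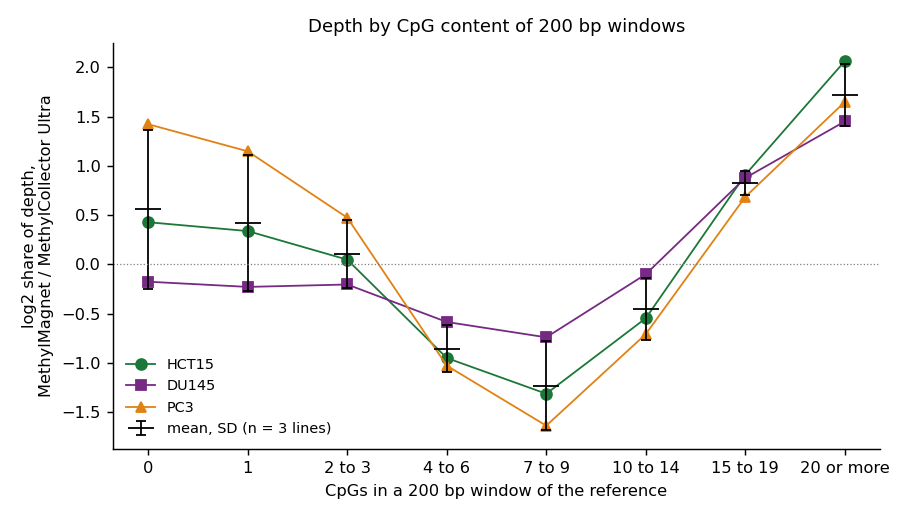
Log2 ratio of the shares of depth, MethylMagnet over MethylCollector Ultra (vertical), by the number of CpGs in 200 bp windows of the reference (horizontal), with 1 line per cell line and the mean and SD over 3 lines in black. The ratio is lowest at 7 to 9 CpGs, at −1.23, and highest at 20 or more, at 1.72, and the lines spread most in windows without a CpG.

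RRBS allowed a related comparison at CpGs of known methylation. Depth at a CpG is given per 1000000 fragments of the library, and crowding is the number of other RRBS CpGs within 100 bp. CpGs that RRBS did not cover are not counted, so the classes are not those of the windows above. With 7 to 9 CpGs the mean log2 ratio was −1.23 in windows, but 0.53 at methylated CpGs with 7 to 9 others. With 2 to 3 it was 0.11 in windows and −0.77 at methylated CpGs. The reason for these opposite directions was not tested. At CpGs methylated to at least 80% with 20 or more others nearby, MethylMagnet had a mean depth of 20.1, 28.9 and 16.7 in HCT15, DU145 and PC3. MethylCollector Ultra had 3.80, 7.15 and 3.95. MethylMagnet depth was 5.30, 4.05 and 4.21 times higher. MethylCollector lay between both, with 9.19, 11.9 and 10.8.

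From 1 other CpG nearby upward, depth at methylated CpGs rose with crowding for both kits, but levelled off for MethylCollector Ultra in HCT15 and PC3. CpGs without any other nearby had a higher depth than those with 1 other in all 6 libraries. In HCT15, methylated CpGs with 7 to 9 others had a depth of 2.71 for MethylCollector Ultra, those with 10 to 14 had 3.53, and those with 15 to 19 and with 20 or more had 3.86 and 3.80. For MethylMagnet these depths were 4.67, 9.78, 15.2 and 20.1. In PC3, MethylCollector Ultra went from 3.28 through 3.93 to 3.95 over the last 3 classes and MethylMagnet from 7.02 through 12.9 to 16.7. In DU145 MethylCollector Ultra still rose, from 3.71 through 5.26 to 7.15. The share of such CpGs in the most crowded class covered by at least 1 fragment was 77.2%, 15.7% and 74.5% for MethylCollector Ultra and 59.1%, 18.9% and 82.5% for MethylMagnet. The number of fragments per library differs alongside, and its part in these shares was not tested.

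Methylated CpGs with few others nearby were covered more deeply by MethylCollector Ultra. At methylated CpGs with 2 to 3 others its depth was 0.651, 0.387 and 0.611 in HCT15, DU145 and PC3, and that of MethylMagnet 0.425, 0.278 and 0.262. The mean log2 ratio at these CpGs was −0.77 ± 0.40, and the ratio changed direction between 4 to 6 others (−0.24 ± 0.31) and 7 to 9 others (0.53 ± 0.23), in the same way in all 3 lines. Single CpGs within a class share fragments, so only the 3 lines count as replicates.

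The steepness of this dependence can be put into 1 number per library, the depth at methylated CpGs with at least 10 others over that at methylated CpGs with 0 or 1 other. It was 35.5, 57.7 and 48.2 for MethylMagnet in HCT15, DU145 and PC3, and 8.06, 19.4 and 9.32 for MethylCollector Ultra. All MethylMagnet values were above all MethylCollector Ultra values, and the difference was 2.03 ± 0.41 on the log2 scale (SD, n = 3; exact p = 0.25). Over CpGs of any methylation it was 1.98 ± 0.36. Counting all CpGs of the reference within 100 bp in place of RRBS CpGs kept the direction, but lowered these differences to 0.75 and 0.78.

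Depth at unmethylated CpGs, at most 20% in RRBS, was low for both kits. Relative to methylated CpGs it was 0.0967, 0.249 and 0.130 for MethylMagnet and 0.0623, 0.247 and 0.121 for MethylCollector Ultra in HCT15, DU145 and PC3. The kits overlapped, and the difference of 0.25 ± 0.34 (log2) was smaller than the spread between lines, and was 0.05 without HCT15. Unmethylated CpGs with 10 to 14 others had a higher depth for MethylMagnet in all 3 lines, by 2.11 times in the geometric mean (log2 1.08 ± 0.51), beside 2.31 times at methylated CpGs of the same crowding (1.21 ± 0.23). With 20 or more others, unmethylated CpGs had a depth of 0.406, 0.670 and 0.310 for MethylMagnet and 0.0907, 0.474 and 0.177 for MethylCollector Ultra (log2 1.16 ± 0.89, against 2.17 ± 0.21 at methylated CpGs).

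**Figure D3:**
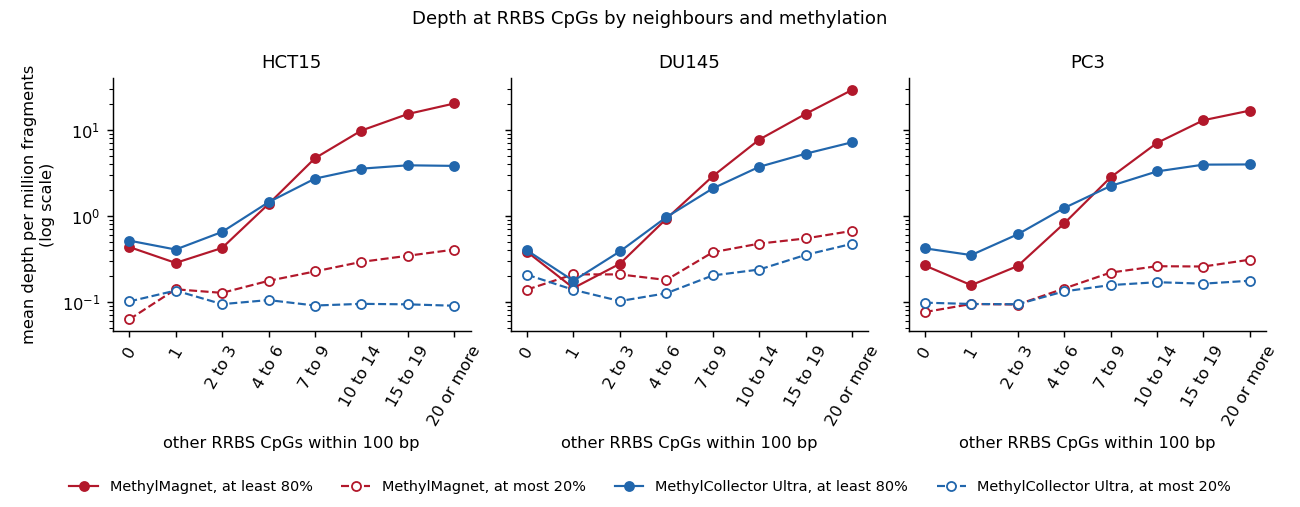
Mean depth per 1000000 fragments (vertical, log scale) at RRBS CpGs by the number of other RRBS CpGs within 100 bp (horizontal), 1 panel per cell line, filled points for CpGs methylated to at least 80% and open points for at most 20%. At methylated CpGs the curve of MethylMagnet crosses that of MethylCollector Ultra between 4 to 6 and 7 to 9 others in each panel.

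The dependence on crowding was seen inside each annotation class. At methylated CpGs with 10 or more others, MethylMagnet depth was 3.59, 2.64 and 3.01 times that of MethylCollector Ultra in promoters (HCT15, DU145, PC3) and 3.59, 2.76 and 2.92 times in exons. In introns it was 2.72, 1.99 and 2.22 times, and in intergenic space 3.14, 2.89 and 2.26 times. At methylated CpGs with 0 or 1 other, introns had 0.547, 0.780 and 0.413 times and intergenic space 0.638, 0.641 and 0.464 times the depth of MethylCollector Ultra. Isolated CpGs of promoters differed from this, with ratios of 1.47, 1.71 and 0.949, and those of exons stood at 1.12, 1.30 and 0.780.

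Around the 5′ ends of 19229 protein-coding genes, MethylMagnet depth was more concentrated. Within 200 bp of the 5′ end it was 4.79, 2.86 and 3.02 times the depth 2 to 3 kb away in HCT15, DU145 and PC3, against 2.03, 2.21 and 1.49 times for MethylCollector Ultra. For genes with promoters methylated to at least 80% in RRBS (2376, 1623 and 1214 genes) these values were 14.1, 9.25 and 9.80 against 6.24, 4.46 and 4.53. Both kits had more depth 0.5 to 1 kb downstream of the 5′ end of these genes than upstream, for example 2.84 against 0.606 per 1000000 fragments in HCT15 for MethylMagnet and 1.30 against 0.463 for MethylCollector Ultra. At promoters methylated to at most 20%, MethylCollector Ultra had less depth at the 5′ end than 2 to 3 kb away in all lines (0.274, 0.918 and 0.416 times), and MethylMagnet 0.770, 0.961 and 1.05 times.

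**Figure D4:**
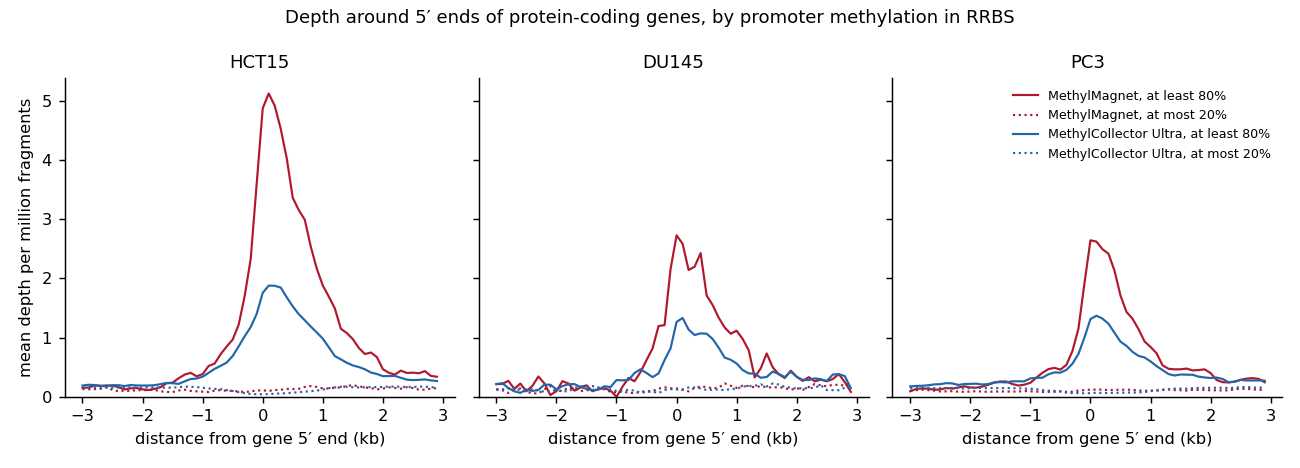
Mean depth per 1000000 fragments (vertical) against distance from the 5′ end of protein-coding genes in kb (horizontal, downstream to the right), 1 panel per cell line, for promoters methylated to at least 80% (solid) and at most 20% (dotted) in RRBS. The solid MethylMagnet curve stands above the MethylCollector Ultra curve near the 5′ end in each panel, and the dotted curve of MethylCollector Ultra dips there in HCT15 and PC3.

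Promoters with more CpGs were more strongly shifted toward MethylMagnet. Promoters with under 50 CpGs had 0.729, 0.625 and 0.830 times the MethylCollector Ultra share of depth in HCT15, DU145 and PC3. Those with 50 to 99 CpGs had 1.44, 1.32 and 1.25 times, those with 100 to 149 had 2.13, 1.77 and 1.74 times, and those with 150 or more had 3.11, 1.80 and 2.05 times. Among promoters methylated to at least 80%, the ratio went from 0.578, 0.528 and 0.667 below 50 CpGs to 3.50, 2.78 and 3.34 at 150 or more. The latter group had 406, 57 and 47 promoters and rested on 50 MethylMagnet fragments in DU145.

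Single promoters were tested on rebuilt fragments with edgeR, with the cell line as a block and the number of fragments as library size. Of 4180 promoters with at least 10 fragments, 67 passed an adjusted p of 0.05, at 58 separate places, and all were higher for MethylMagnet (1.6% of those tested). None was higher for MethylCollector Ultra (0% called), while 578 promoters passed an unadjusted p of 0.05 in either direction. The 3 MethylMagnet libraries together held 312086 fragments, against 1261874 for MethylCollector Ultra. Of the tested promoters, 313 had no MethylMagnet fragment and 0 had none of MethylCollector Ultra. Calls toward MethylCollector Ultra were therefore hard to reach, and 26 fragments against 0 at the XKR8 promoter did not pass. The lack of such calls is not read as a trait of the kits. The median log2 fold of all tested promoters was 0.58, and that of the 67 was 2.15. The 67 had a median of 168 CpGs, against 109 for all tested, and 40 of them had 150 or more CpGs, as had 962 of the 4180 tested. Most fragments came from HCT15 and PC3, as 3469 of the tested promoters had none in DU145 for MethylMagnet and 2944 had none for MethylCollector Ultra.

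These calls rest on the scaling and on the block. With TMM scaling no promoter passed (326 at an unadjusted p of 0.05), and the median log2 fold of all tested promoters moved from 0.58 to −0.31. The median of the 67 was 1.54 above it, against 1.58 here. TMM scales all promoters of a library by the same factor, and the 67 were picked by these counts. That gap could therefore hardly change, and nothing about the calls is read from it. DESeq2 also called 0 (50 unadjusted), as did the fit without the cell line block (387 unadjusted). Without HCT15 there were 22 calls, without PC3 29, and without DU145 83.

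The promoters named here are among those called with the largest fold toward MethylMagnet and the same direction in all lines. ABHD16B (chr20:62491851-62493851, 139 CpGs), which encodes an abhydrolase domain protein, had 25.0, 19.9 and 15.7 fragments per 100000 for MethylMagnet in HCT15, DU145 and PC3. For MethylCollector Ultra it had 3.52, 3.30 and 3.97. The log2 fold was 2.36 (adjusted p = 9.42e-05 by edgeR), and RRBS gave 96.6%, 96.6% and 97.5% methylation. Promoters named here had to be higher for MethylMagnet in every line, as were 402 of the 4180 tested, so this separation of the kits follows largely from the choice. The counts behind these values were 15, 2 and 38 fragments against 23, 1 and 23.

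GREM1 (chr15:33009205-33011205), the gene of a secreted antagonist of bone morphogenetic proteins, had 12, 1 and 26 fragments for MethylMagnet and 17, 1 and 15 for MethylCollector Ultra (log2 2.39, adjusted p = 0.000839 by edgeR). ZAR1 (chr4:48491269-48493269), a maternal gene needed when the embryo takes over from the oocyte, had 16.7, 9.96 and 9.50 fragments per 100000 against 2.45, 3.30 and 1.38 (log2 2.68, adjusted p = 0.000626 by edgeR). Its printed stretch was covered by 5, 1 and 9 MethylMagnet fragments and 9, 1 and 3 of MethylCollector Ultra. Both genes were higher per fragment of the library for MethylMagnet in every line, which the rule for naming promoters requires. In DU145 each kit had 1 fragment, so the difference there is that of library size only.

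NKX6-2 (chr10:134598651-134600651), a homeobox gene of the nervous system with 289 CpGs in its promoter, had 14, 2 and 7 fragments for MethylMagnet and 27, 0 and 4 for MethylCollector Ultra (log2 2.48, adjusted p = 0.00585 by edgeR). ERICH1 (chr8:687106-689106) had 13, 1 and 8 against 18, 0 and 5, and SMIM41 (chr12:52472488-52474488) 5, 4 and 18 against 16, 1 and 5. The other 3 named promoters belong to lncRNA genes without a symbol, with log2 folds of 2.28 to 2.50. One of them overlaps the promoter of PCDHB7, a clustered protocadherin, another that of SLC4A10, a bicarbonate transporter, and the third that of PCDHA9.

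Toward MethylCollector Ultra no promoter was called, and those with the smallest p were promoters without any MethylMagnet fragment. They passed the filter on low counts through the deeper MethylCollector Ultra libraries alone, so their values are a description. XKR8 (chr1:28285099-28287099), the gene of a phospholipid scramblase, had 0 fragments in all 3 MethylMagnet libraries and 8, 1 and 17 in MethylCollector Ultra (adjusted p = 0.132 by edgeR). VDR (chr12:48335831-48337831), which encodes the vitamin D receptor, had 0 against 9, 4 and 9 (adjusted p = 0.221), and its RRBS methylation was 88.7%, 96.0% and 90.9%. SCN4A, a muscle sodium channel gene, had 0 against 7, 1 and 10 (adjusted p = 0.277). XKR8 was unlike VDR in methylation, at 13.3%, 15.2% and 21.8%. The printed stretch of VDR has 14 CpGs in 240 bases, against 35 in the ZAR1 stretch. The stretch of XKR8 chosen in the same way has 26 CpGs. Its whole promoter has 143, against 139 in that of ABHD16B, which was called for MethylMagnet.

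Gene lists were read beside the share of all tested promoters called higher for MethylMagnet, 1.6%. Each list had 0 or 1 call, and nothing is read about a list from such a count. Among 22 tested promoters of genes used as methylation markers in prostate or colorectal cancer, 1 was called, namely IKZF1, a lymphoid transcription factor gene. It had 5, 0 and 25 MethylMagnet fragments and 11, 1 and 8 of MethylCollector Ultra in HCT15, DU145 and PC3 (log2 2.49, adjusted p = 0.00729). The list had a median log2 fold of 0.97, against 0.58 for all tested promoters. With TMM scaling its median was −0.11, against −0.31 for all tested. RASSF1, a tumour suppressor gene, had 6, 0 and 19 against 23, 0 and 20 (log2 1.30, adjusted p = 0.246), and SFRP1, a Wnt antagonist gene, had 7, 1 and 8 against 16, 0 and 5 (log2 2.18, adjusted p = 0.0951).

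Among 21 promoters of germline genes, which are methylated in most somatic cells, 1 was called. This was SYCP2 of the synaptonemal complex, with 9, 1 and 16 against 25, 0 and 12 fragments (log2 1.88, adjusted p = 0.0418). The list had a median of 0.81. Among 18 promoters of imprinted genes 1 was called, NNAT, which is expressed from the paternal allele, with 9, 1 and 21 against 20, 0 and 16 (log2 1.98, adjusted p = 0.0176), and the median was 0.48. Among 22 promoters of GATA and FOX transcription factors 1 was called, FOXE3 of the lens, with 7, 0 and 20 against 13, 0 and 8 (log2 2.53, adjusted p = 0.00729), and the median was 0.92. Among 9 promoters of clustered protocadherins 1 was called, PCDHGA8, with 10, 2 and 14 against 23, 1 and 14 (log2 1.79, adjusted p = 0.0475), and the median was 0.24.

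Of the members that did not pass, GATA5, a factor of gut development, had 12, 0 and 12 against 37, 0 and 14 (log2 1.45, adjusted p = 0.139). PRSS50, a testis protease gene, had 5, 1 and 12 against 19, 1 and 6 (log2 1.84, adjusted p = 0.135). PEG3, a paternally expressed zinc finger gene, had 1, 0 and 6 against 14, 0 and 14, with a log2 fold of −0.06 (adjusted p = 0.99).

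No promoter was called among 20 HOX, 11 SOX, 6 PAX, 35 chromosome 19 ZNF and 3 ribosomal protein promoters, beside the 1.6% over all tested promoters, with medians of 0.88, 1.30, 1.05, −0.26 and 1.15. HOXA5, a gene of axial patterning, had 6, 0 and 12 fragments against 24, 0 and 13 (log2 1.26, adjusted p = 0.337), and PAX2 of kidney development 8, 1 and 3 against 14, 0 and 7 (log2 1.75, adjusted p = 0.268). ZNF490, whose promoter was methylated to 94.9%, 95.7% and 62.0%, had 0, 0 and 2 against 11, 0 and 12 (log2 −1.58, adjusted p = 0.59). These medians, and those of the lists above, move with the scaling. With TMM the medians of the HOX, GATA and FOX, germline, imprinted, protocadherin and cancer marker lists were below 0, and the ZNF median stayed negative at −1.24. Relative to the median of all tested promoters, the ZNF list stood at −0.84 here, −0.94 with TMM and −0.79 with DESeq2, and the SOX list at 0.72, 0.75 and 0.33. Since TMM scales all promoters of a library alike, the near-equal positions with TMM are no separate support. Of the 4 promoters that the study displays, TERT of telomerase had 12, 1 and 21 against 37, 2 and 26 fragments (log2 1.30, adjusted p = 0.124). SOCS3 had 4, 0 and 10 against 12, 0 and 5, IGFBP3 2, 0 and 2 against 9, 0 and 2, and EPB41L3 1, 1 and 1 against 5, 0 and 3, and none was called.

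Multi-copy sequence made up a larger part of MethylMagnet depth. Such windows of 1 kb were recognised by an RRBS coverage of at least 10 times the median of the library in 2 cell lines, which gave 46 windows. They held 0.627%, 1.16% and 0.366% of MethylMagnet depth in HCT15, DU145 and PC3 and 0.164%, 0.269% and 0.113% of MethylCollector Ultra depth. The kits did not overlap, and MethylMagnet was 3.82, 4.33 and 3.25 times higher (log2 1.92 ± 0.21, exact p = 0.25). With windows defined by MethylMiner depth instead, the difference was 0.70 on the log2 scale.

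Most MethylMagnet fragments of these windows lay in a pair of neighbours on chromosome 21. The window with MIR3648 and MIR3687 (chr21:9826001-9827000, 202 CpGs), hairpins in a stretch of ribosomal RNA spacer, held 165, 72 and 360 MethylMagnet fragments and 204, 30 and 190 of MethylCollector Ultra in HCT15, DU145 and PC3. This was 8.80, 7.25 and 4.53 times more per fragment of the library. The next window (chr21:9827001-9828000), with 51 CpGs, held 107, 14 and 172 against 398, 29 and 196, with ratios of 2.93, 1.46 and 2.10. In this pair the higher ratio was at the higher number of CpGs in all 3 lines. A window in PMF1 (chr1:156186001-156187000) had ratios of 7.20, 6.91 and 5.51. A window with 44 CpGs in the lncRNA gene MIR663AHG (chr20:26188001-26189000) had 4.79, 3.02 and 8.93. Close by in that gene, chr20:26190001-26191000 with 61 CpGs had 3, 0 and 15 fragments against 8, 0 and 9. Its ratios were lower, at 4.08 in HCT15 and 3.98 in PC3, so the number of CpGs did not order the ratios there. The window at chr10:42599001-42600000 had 1, 1 and 4 against 55, 2 and 32 fragments and was the other way in HCT15 and PC3. So were chr10:42385001-42386000, with 1, 0 and 6 against 24, 1 and 21, and chr10:42389001-42390000, with 1, 0 and 6 against 19, 1 and 20. Only 19, 7 and 22 of the 46 windows held a MethylMagnet fragment, so the larger share was not a trait of every window.

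The fullest window of MethylCollector Ultra in HCT15 and PC3 was of another kind. It held the coding sequence of MBD3L1 (chr19:8953355-8953936, a single coding exon of 582 bases with 9 CpGs), the gene of the second protein of that kit, and was singled out after its values were seen. For MethylCollector Ultra, 899, 25 and 454 fragments lay in the coding sequence (HCT15, DU145, PC3). That was 0.138% (95% Wilson interval 0.129 to 0.147%), 0.0824% (0.0558 to 0.122%) and 0.0784% (0.0716 to 0.0860%) of all fragments, where the intervals cover counting error only. MethylMagnet had 9, 1 and 1 fragments there.

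All of these fragments lay wholly within the coding sequence. In MethylCollector Ultra the first covered base was the first coding base in HCT15 and lay 4 and 1 bases after it in DU145 and PC3. The last covered base was 19 bases before the end of the coding sequence in all 3 libraries. The rest of the MBD3L1 gene, introns and non-coding exons, had 1, 1 and 5 fragments. The depth in the coding sequence, of up to 514 in HCT15 and 240 in PC3, was the highest anywhere in these 2 libraries.

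The other 12 MBD-seq libraries of the series had between 0 and 150 fragments in this coding sequence per 1000000 fragments of the library, against 1377, 824 and 784 in the MethylCollector Ultra libraries. Besides MethylMagnet, MethylCollector had 3, 3 and 5 fragments, MethylCap 20, 0 and 6, and MethylMiner 40, 1 and 1 in HCT15, DU145 and PC3. The MethylMiner fragments of HCT15 covered the coding sequence up to the same last base as those of MethylCollector Ultra. The coding sequence of MBD2, whose short form is in both kits, had at most 1 fragment in any of the 6 libraries. The printed MBD3L1 stretch, with 1 CpG in 240 bases, was covered by 854, 23 and 431 MethylCollector Ultra fragments, while the MIR3648 stretch, with 46 CpGs, was covered by 201, 31 and 190. Whether the MBD3L1 fragments came from the DNA of the cell lines was not tested.

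**Figure D5:**
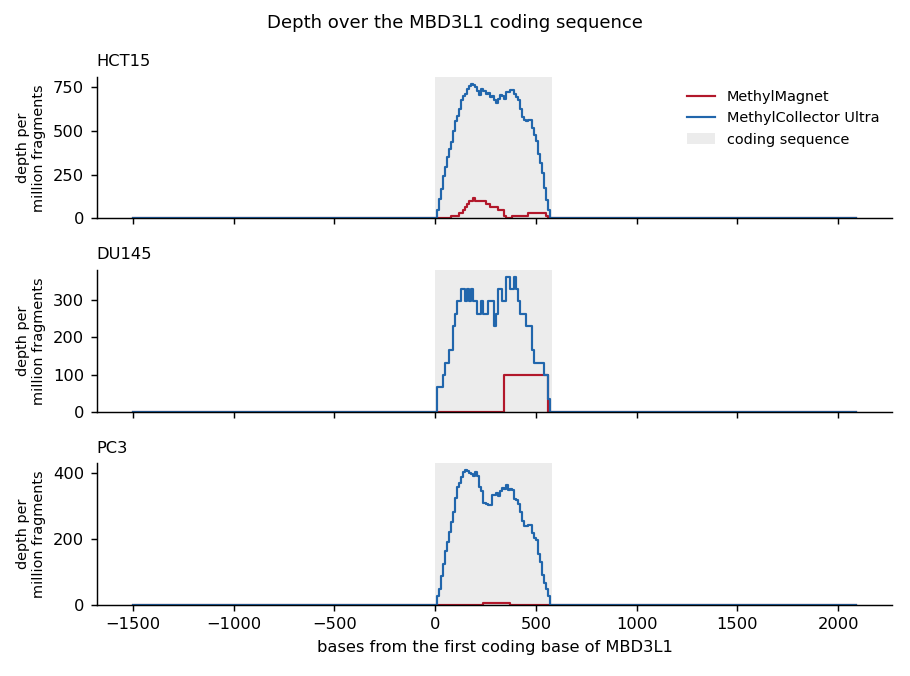
Depth per 1000000 fragments (vertical) against the distance in bases from the first coding base of MBD3L1 (horizontal), 1 panel per cell line with its own scale, with the coding sequence shaded. MethylCollector Ultra depth begins and ends within the 582 coding bases in each panel, where MethylMagnet had 9, 1 and 1 fragments.

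Over 1 Mb bins of the autosomes, regions with few CpGs leaned toward MethylMagnet and regions with many toward MethylCollector Ultra. Of 2729 bins with at least 20 fragments, edgeR with the cell line as a block called 109 higher for MethylMagnet (3.99%) and 101 higher for MethylCollector Ultra (3.7%). With the bins ordered by CpGs per kb into 5 groups, the poorest group had 25 calls toward MethylMagnet and 0 toward MethylCollector Ultra, and the richest 10 and 88. The groups between, from poor to rich, had 26, 21 and 27 toward MethylMagnet and 0, 0 and 13 toward MethylCollector Ultra. Calls toward MethylMagnet were thus not confined to the poorest bins. The richest group held 50.3%, 53.2% and 38.9% of MethylMagnet fragments in HCT15, DU145 and PC3 and 54.4%, 55.3% and 51.0% of MethylCollector Ultra fragments. The poorest group held 6.12%, 5.24% and 10.3% against 4.27%, 4.79% and 6.19%. The size of both differences was greatest in PC3, the line in which MethylMagnet also had most depth without CpGs.

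The bin with the largest fold toward MethylMagnet was chr21:9000001-10000000, which contains the MIR3648 window, with 416, 137 and 889 fragments against 965, 94 and 722 (log2 1.96, adjusted p = 5.85e-13 by edgeR). The bin chr4:155000001-156000000, with LRAT of retinol metabolism and the fibrinogen genes FGA, FGB and FGG, had 91, 5 and 99 against 188, 9 and 130 (log2 1.59, adjusted p = 1.13e-13). On the other side, chr7:74000001-75000000, with GTF2I and NCF1, had 4, 1 and 28 against 148, 9 and 195 (log2 −1.59, adjusted p = 0.000592). The bin chr14:35000001-36000000, with the inhibitor gene NFKBIA, had 9, 2 and 114 against 347, 29 and 485 (log2 −1.12, adjusted p = 2.17e-05).

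The balance of these calls moved with the scaling, since TMM gave 64 bins toward MethylMagnet and 149 toward MethylCollector Ultra. Without the cell line block no bin was called (206 at an unadjusted p of 0.05), DESeq2 called 35, and limma on the log2 share of depth called 0 (246 unadjusted). Without HCT15 there were 20 calls, without PC3 37, and without DU145 296.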

How the data were processed

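The authors aligned MBD-seq reads with Bowtie to build 37 (hg19). The Bowtie version is not given in the sources used here. They deposited runs of coverage (signal: the unscaled depth of unique, non-duplicate fragments) for MBD-seq, and for RRBS the read counts at each CpG (methylated, and in total). Fragments were rebuilt from the steps in depth and counted by their midpoint, and the steps were tested on simulated data. Depth per library gives the precision, since reads carry no molecular identifiers and intervals cover counting error only. Gene models were GENCODE 44 lifted to GRCh37. Promoters with at least 10 fragments and 1 Mb bins with at least 20 were fitted with edgeR 4.0.16 quasi-likelihood, the cell line as a block, fragments as library size, and Benjamini-Hochberg adjustment at 0.05. limma 3.58.1 (pseudocount 10) and DESeq2 1.42.0 were alternatives. Shares were compared by exact permutation tests in Python 3.11.15 with SciPy 1.17.1. Kits were paired because the same cell line was used, and deviations of same-line libraries correlated at 0.17, 0.13 and 0.43 over 2729 bins. Named promoters and bins were those called (or, where none was, those with the smallest p) with the largest fold and the same direction in 3 lines. Members and gene lists were chosen with earlier results of these data known. Sex chromosomes were left out of the classes. One promoter that this rule names is not reported here.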

Additional observations from a re-analysis of the deposited data

Results flagged for a closer look

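In several results the cell lines moved in opposite directions, and the difference between lines was not tested. The share of depth in intergenic space gave log2 ratios of MethylMagnet over MethylCollector Ultra of −0.13 in HCT15, −0.17 in DU145 and 0.15 in PC3. Windows of 200 bp without a CpG gave 0.43 in HCT15, −0.18 in DU145 and 1.42 in PC3. In the same order, windows with 1 CpG gave 0.34, −0.23 and 1.15, and those with 2 to 3 CpGs 0.05, −0.20 and 0.47. Non-coding exons of protein-coding genes gave 0.05, 0.09 and −0.21, and lncRNA exons −0.27, 0.06 and −0.03.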

How the results depend on the processing

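The mean log2 differences in shares kept their direction under the alternatives run, except for intergenic space, which went from −0.05 to 0.0087 without DU145. By share of fragments in place of depth, PC3 exons went the other way, at 15.7% for MethylMagnet against 15.9%. Promoter shares of the kits then overlapped, with 7.98% for PC3 MethylMagnet and 8.56% for HCT15 MethylCollector Ultra. Leaving out each cell line in turn gave 0.49 to 0.69 for promoters, −0.32 to −0.23 for introns, 1.82 to 2.02 for multi-copy windows and 0.13 to 0.93 for windows without a CpG. With promoters of 2 kb the promoter difference was 0.47. The multi-copy difference was 0.70 with windows defined by MethylMiner depth, and the crowding differences were 0.78 and 0.75 with CpGs of the reference. Of the calls by the cell line (replicate) block and library scaling, 67 promoters became 0 with TMM, 0 with DESeq2, 0 with no replicate block, 31 with no filter on low counts, 43 with limma and 22 (without HCT15), 29 (without PC3) and 83 (without DU145) with 1 line left out. The 210 bins became 35 with DESeq2, 0 with no replicate block, 0 with limma and 20, 37 and 296 in the same order. The fragments of the DU145 libraries limit the depth, and the cause of these changes was not tested.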
